A study of Mus musculus with 22 samples.

Results

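The TAM receptors Axl, Mertk and Tyro3 and the secreted bridging proteins Gas6, Pros1 and Mfge8 were followed through cell classes of the mouse hippocampus. These 6 genes were taken by name from a table of 13685 genes, and each was counted in all 22 animals. Drop-seq, which catches single cells in droplets with barcoded beads, had been run on the hippocampus of old mice (5 WT, 4 rTg4510, 3 P301L and 3 rTta) and of young ones (4 WT and 3 rTg4510), all with the strain label Fvb/B6. The rTg4510 line carries a human P301L tau responder with a tetracycline operator, driven by a transactivator whose Camk2a promoter is active mainly in forebrain excitatory neurons. P301L and rTta are labels that name the responder and the transactivator, presumably each without the other, although no label says so. WT animals were littermates with neither. At the old age the WT mice were between 32 and 40 weeks, rTg4510 between 32 and 38, P301L between 41 and 48, and rTta at 33. Young WT animals were 5 to 6 weeks old and young rTg4510 animals 4 to 5 weeks, by the sample labels, whereas the description of the whole study gives a lower range.

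TAM receptors are receptor tyrosine kinases that do not bind dying cells directly. Gas6 and protein S, the product of Pros1, bind phosphatidylserine exposed on a dying cell or membrane with one end and a TAM receptor with the other. Gas6 can engage all TAM receptors, and protein S acts through Tyro3 and Mertk. Mfge8, also called lactadherin, bridges phosphatidylserine to integrins alpha-v beta-3 and alpha-v beta-5 instead. In the brain Mertk is known for clearance by microglia and astrocytes, Axl for its appearance on activated phagocytes, and Tyro3 for its place in neurons and myelinating glia.

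Animals differed in depth, with total counts from 780831 to 6039656, and 27198 barcodes with at least 300 counts were kept. Clustering without the 6 genes gave 12 classes named from markers, with 20904 cells, and left 6294 cells (23.1%) unnamed. In 1501 of the named cells, called mixed cells here, foreign marker counts exceeded those of the cell's own class. Of 26998 distinct barcode sequences, 197 occurred in more than 1 library. By its zeros the count table joins 2 sections, with the P301L and rTta animals in one and the other 16 animals in the other. Where P301L or rTta animals are set against the others, genotype and table section cannot be told apart. The titles of old and young WT and rTg4510 animals lie in separate number ranges, so age and title range cannot be told apart either. Levels are in CPM, the count of a gene scaled to a common total of its class in an animal. Libraries were read from the 3′ end, so levels are compared for 1 gene at a time and not between genes.

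The promoters of Axl and Mfge8, the members whose levels passed a test between groups, are shown from RefSeq (build GRCm38.p6). Each is the 250 bases before the annotated start, on the minus strand of chromosome 7, at chr7:25788734-25788983 for Axl and chr7:79149061-79149310 for Mfge8. Capitals mark the GC box, GGGCGG on either strand.
Axl: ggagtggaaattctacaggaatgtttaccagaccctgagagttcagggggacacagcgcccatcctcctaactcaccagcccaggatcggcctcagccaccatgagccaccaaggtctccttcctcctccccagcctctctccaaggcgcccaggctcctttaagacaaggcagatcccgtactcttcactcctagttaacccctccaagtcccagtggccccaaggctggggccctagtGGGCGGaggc
Mfge8: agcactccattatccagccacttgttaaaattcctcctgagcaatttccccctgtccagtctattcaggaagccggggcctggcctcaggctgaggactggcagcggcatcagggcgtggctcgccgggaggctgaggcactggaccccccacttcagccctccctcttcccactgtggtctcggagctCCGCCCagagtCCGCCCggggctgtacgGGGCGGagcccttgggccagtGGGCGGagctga
The Axl window held 1 GC box and had a GC content of 60.0%, and the Mfge8 window held 4 and had 65.2%. The other windows held 3 GC boxes (Mertk), 3 (Tyro3), 4 (Gas6) and 5 (Pros1). Of all 32851 promoters of the same length, 32.7% held a GC box. The GAS motif TTCNNNGAA was found once, in Pros1, and 7.02% of all promoters held it. The core of the interferon response element (GAAA, any 2 bases, GAAA) and the AP-1 motif TGANTCA were in none of the 6 windows and in 2.98% and 6.75% of all promoters. A match is a match of letters, and its absence says only that the letters are not in this window. On GRCm38 the genes lie on chromosome 7 from 25757273 to 25788705 (Axl), chromosome 2 from 128698956 to 128802894 (Mertk), chromosome 2 from 119797733 to 119818104 (Tyro3), chromosome 8 from 13465374 to 13494490 (Gas6), chromosome 16 from 62854307 to 62929346 (Pros1) and chromosome 7 from 79133768 to 79149060 (Mfge8). An exon of Gas6 overlaps the gene Tmem255b on the opposite strand, and an exon of Mertk overlaps the antisense gene Gm14011. Values of both are uncertain, since the strand used in counting is not given in the sources used here.

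The 3 receptors were spread over different cell classes. Axl stood highest in mural cells, the pericytes and smooth muscle cells of vessels, at 254 ± 140 CPM (SD, n = 18 animals with at least 20 such cells). Astrocytes followed with 110 ± 54.2 (n = 22), and microglia, the resident phagocytes, with 51.9 ± 77.8 (n = 21). Mural cells exceeded astrocytes in 16 of 18 animals (adjusted p = 0.000572, exact two-sided sign-flip permutation test within animals on log2 of CPM plus 10), and astrocytes exceeded microglia in 16 of 21 (adjusted p = 0.00258, the same exact test). This order pools the groups, and in the 4 old rTg4510 animals microglia (141 to 226 CPM) lay above astrocytes (72.8 to 115). Excitatory neurons stood lowest in this order, at 3.92 ± 3.77 CPM (n = 22). Mertk stood highest in microglia at 109 ± 47.5 CPM (n = 21), above Cluster 14 in 11 of 11 animals (adjusted p = 0.00586, exact permutation test). Cluster 14, an unnamed cluster, had 46.0 ± 29.0 CPM and astrocytes 43.3 ± 24.0 (n = 22), and their order did not pass the test. Cluster 14 carried 13 of 13 microglia markers. It was left unnamed because Mrc1 and Stab1, on the marker list for border macrophages, were among its leading genes. Astrocytes exceeded endothelial cells, at 19.7 ± 11.4 CPM, in 19 of 22 animals (adjusted p = 0.0022, exact permutation test). Among the classes ranked, Tyro3 stood highest in oligodendrocytes at 199 ± 58.6 CPM and next in excitatory neurons at 51.2 ± 18.8. The former was higher in 22 of 22 animals (adjusted p = 2.861e-05, exact permutation test). Some unnamed clusters outside this order also lay above 51.2 CPM, summed over all animals. They included 1 with markers of both oligodendrocyte precursors and oligodendrocytes, at 161 CPM, and 1 with 3 markers of CA pyramidal neurons, at 71.7. In microglia Tyro3 was lowest of the classes ranked, at 4.96 CPM, with no count in 11 of 21 animals.

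**Figure D1:**
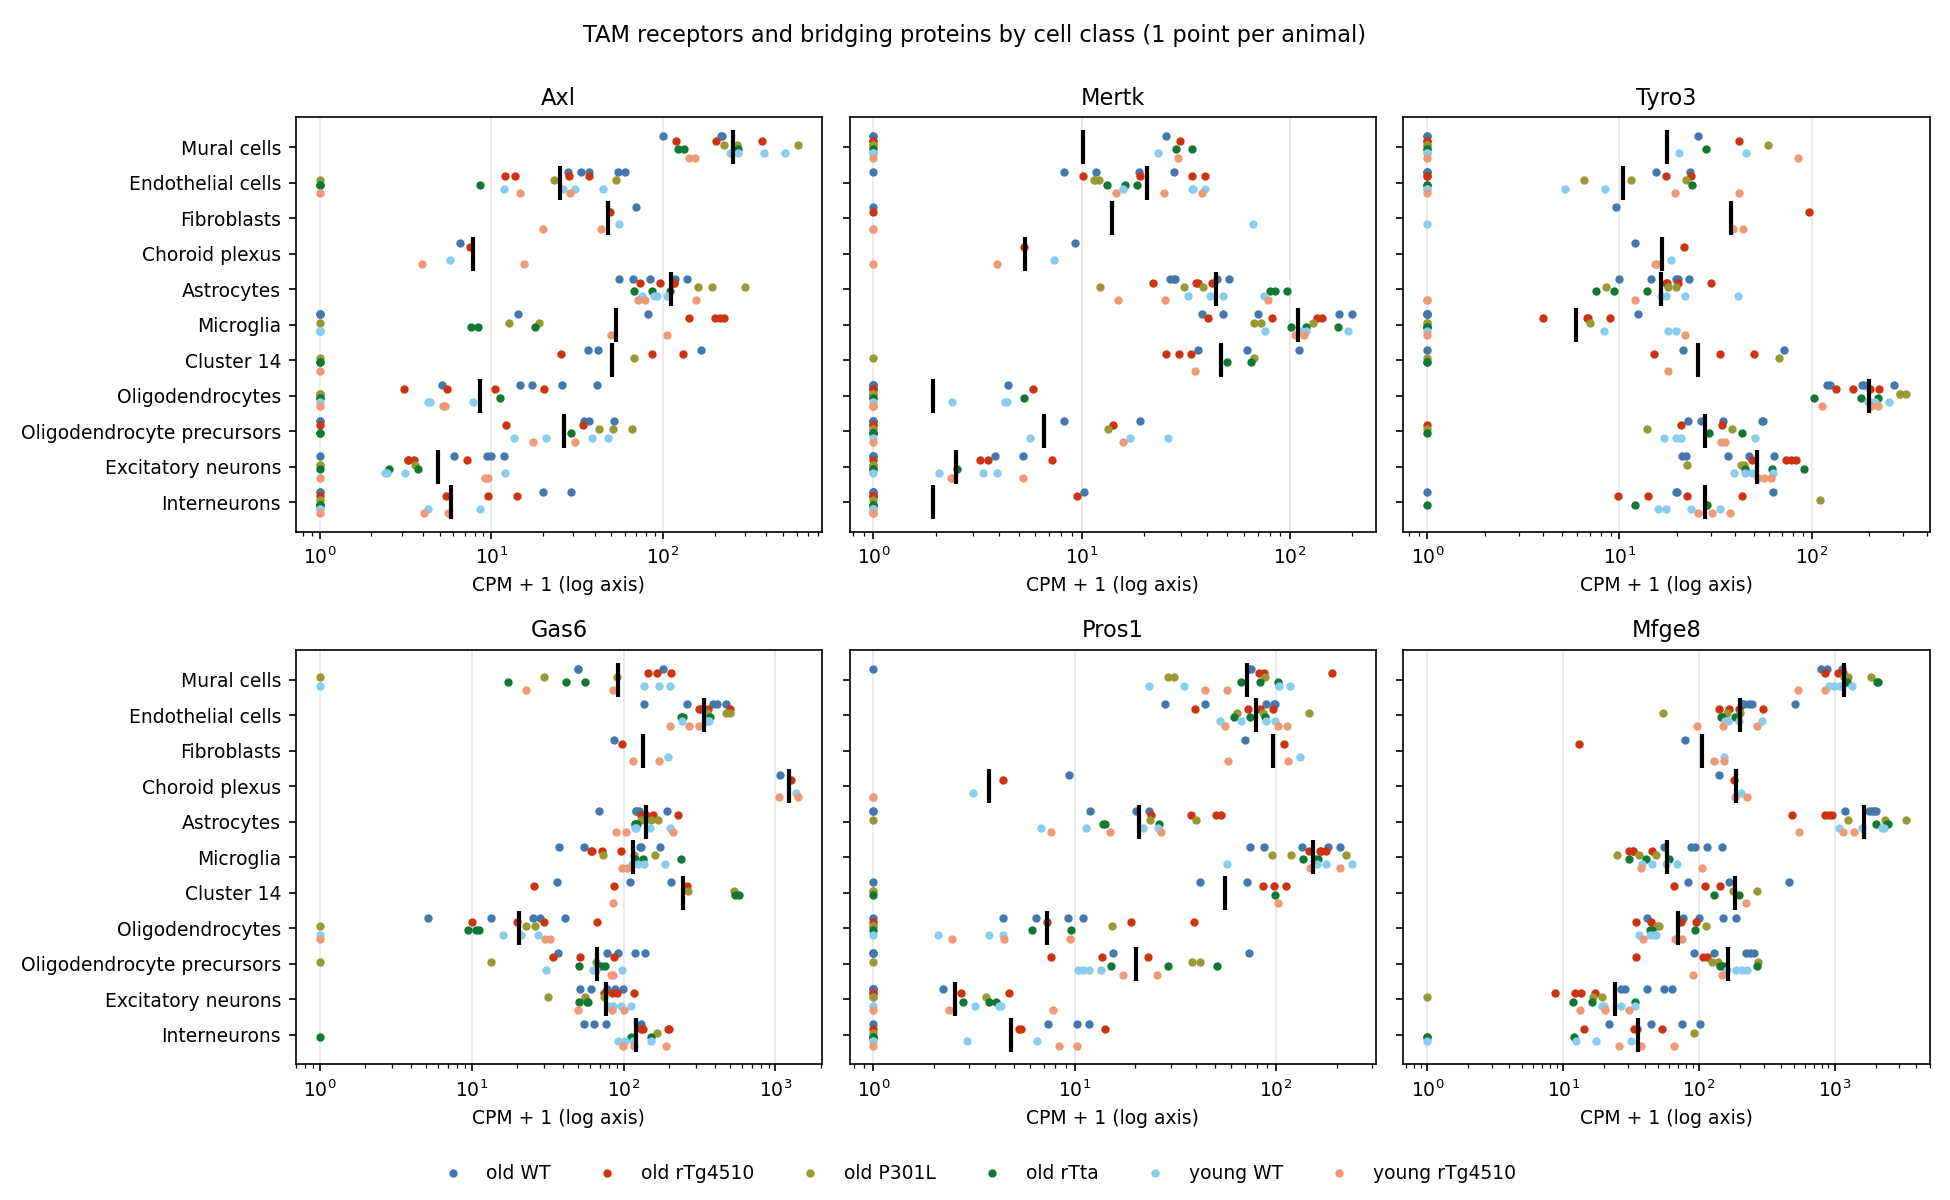
Level of each gene in each cell class, as CPM plus 1 on a log axis, with 1 point per animal coloured by group and a bar at the mean over animals. Axl stands highest in mural cells (254 CPM), Mertk in microglia (109), Tyro3 in oligodendrocytes (199), Gas6 in choroid plexus (1228), Pros1 in microglia (152) and Mfge8 in astrocytes (1644).

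The bridging proteins were spread over other classes again. Gas6 stood highest in choroid plexus, the epithelium that makes cerebrospinal fluid, at 1228 ± 165 CPM (n = 5), and this class held 62.0% of its counts over all kept cells. Of those 8129 counts, 4426 came from old rTg4510 replicate 3. Next in the order, endothelial cells had 338 ± 97.5 CPM (n = 22), lower than choroid plexus in 5 of 5 animals, where the smallest p the exact test can give is 0.0625. The order took classes with at least 4 animals. Ependymal cells were thus left out, and their Gas6 stood at 809 CPM in the 1 animal with enough cells. Cluster 14 had 247 ± 211 CPM and astrocytes 140 ± 39.6. Only 1 pair of neighbours in the Gas6 order passed, with oligodendrocyte precursors above oligodendrocytes (adjusted p = 0.000229, exact permutation test, higher in 18 of 20 animals). Pros1 stood highest in microglia at 152 ± 47.8 CPM (n = 21), followed by fibroblasts at 95.7, endothelial cells at 78.5 ± 27.0 and mural cells at 70.7. The order of these neighbours did not pass the test. Microglia exceeded fibroblasts in 4 of 4 animals with both, where the smallest p the exact test can give is 0.125. Microglia were not tested against endothelial cells. For Pros1 too the pair that passed was oligodendrocyte precursors above oligodendrocytes (adjusted p = 0.0039, exact permutation test). Mfge8 stood highest in astrocytes at 1644 ± 727 CPM (n = 22), above mural cells with 1178 ± 423 (n = 18) in 15 of 18 animals (adjusted p = 0.00372, exact permutation test). Mural cells in turn exceeded endothelial cells, at 201 CPM, in 18 of 18 animals (adjusted p = 0.000229, exact permutation test). Lower in the order, microglia stood above interneurons (adjusted p = 0.0151, exact permutation test). Over all 6 genes, 11 of 60 neighbouring pairs passed. Pairs shared by 5 or fewer animals could not pass, since the smallest p of the exact test is then 0.0625 or more.

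The genes whose class levels were most alike were read over 11 classes among 8328 genes, as Pearson r of log2 of CPM plus 10, with the same libraries behind all points. For Axl they included Smim3 (r = 0.914) and Lpp (0.883). For Mertk they were Cst3, which encodes cystatin C (0.945), Sat1 (0.942) and Stk17b (0.934). For Tyro3 they were Map6d1 (0.96), Mapk8ip1, a JNK scaffold (0.96), and Fcho1 (0.954). For Gas6 they were Tmem160 (0.937), Slc31a1, a copper transporter (0.913), and Cetn2 (0.874). For Pros1 they were Il6st, the gp130 receptor subunit (0.969), Zfp36 (0.948) and Txnip (0.944). For Mfge8 they were Fam20a (0.911), Tmem129 (0.887) and Slc9a3r1 (0.886).

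Microglia of old rTg4510 animals held more Axl than those of any other old group. Axl stood there at 226, 199, 214 and 141 CPM in the 4 animals, from 78, 132, 27 and 24 counts. In old WT animals it stood at 13.3, 0, 0, 80.8 and 0 CPM, from 2, 0, 0, 7 and 0 counts. The groups did not overlap, and WT replicate 4 was the only WT animal above 13.3. The change was 3.02 ± 0.49 on the log2 scale (SE; adjusted p = 2.733e-05, edgeR quasi-likelihood test with Benjamini-Hochberg adjustment), against 195 ± 37.5 and 18.8 ± 35.1 CPM (SD, n = 4 and 5). Without WT replicate 4 it was 4.70, and leaving out each animal in turn gave values from 2.68 to 4.70. The ratio of summed counts, scaled to the class totals, was 7.63, with an exact 95% interval of 3.96 to 16.9 that covers counting error only. In microglia 4.63% of 4297 genes were called in this comparison, and over all classes 0.547%.

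**Figure D2:**
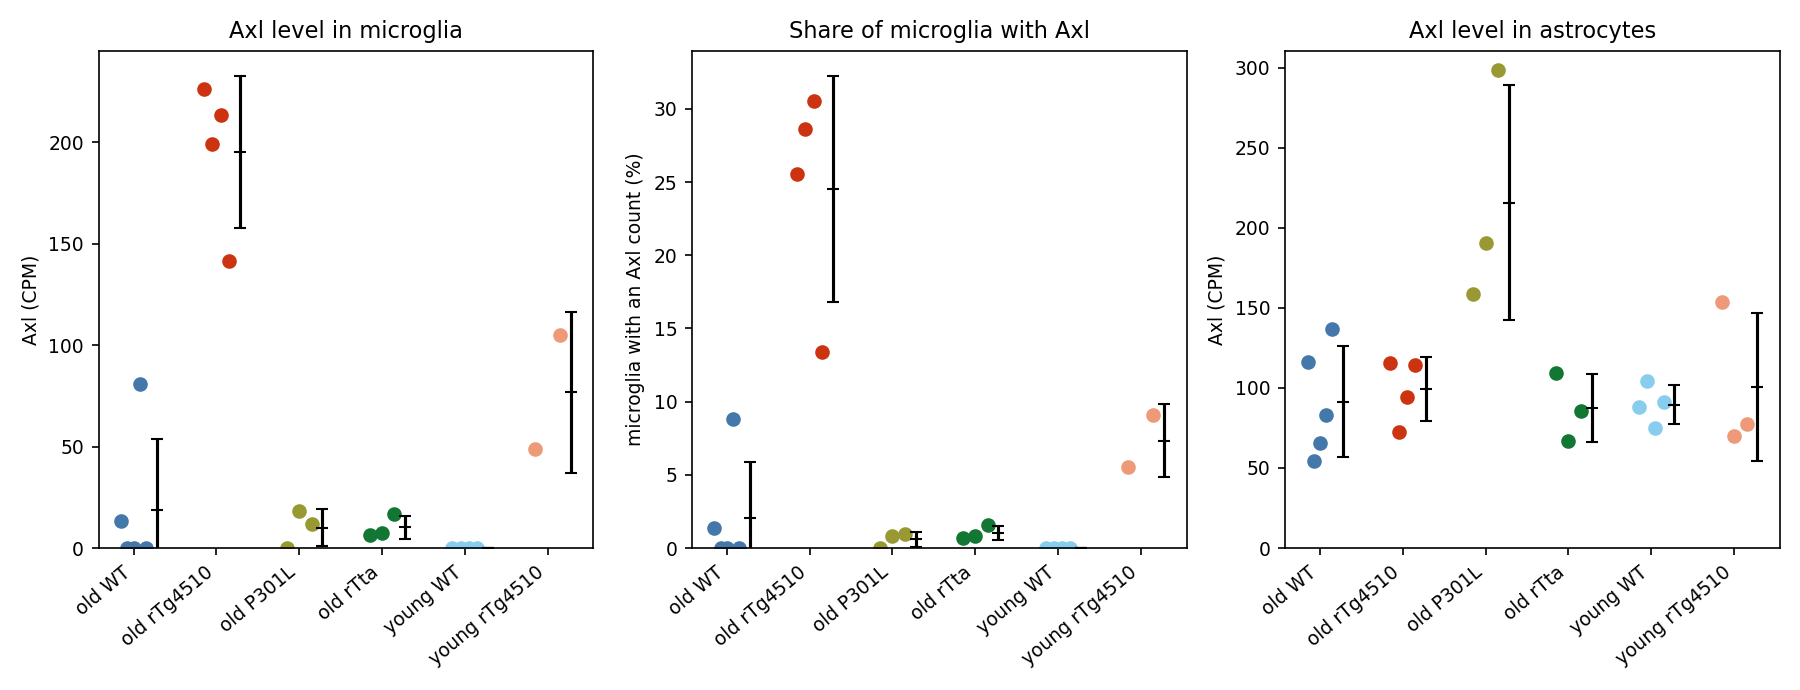
Axl per animal (points) with the mean and SD of each group, as CPM in microglia (left), as the percentage of microglia with an Axl count (middle) and as CPM in astrocytes (right). In microglia the 4 old rTg4510 animals sit between 141 and 226 CPM, above every old WT animal (0 to 80.8), and in astrocytes the groups other than P301L overlap.

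The single-transgene groups lay low as well. P301L animals had 0, 18.0 and 11.7 CPM, and rTta animals 6.66, 7.40 and 16.9. Against rTta the old rTg4510 change was 4.36 ± 0.58 (adjusted p = 3.984e-07), and against P301L 4.18 ± 0.60 (adjusted p = 3.751e-06, both edgeR with Benjamini-Hochberg adjustment); without P301L replicate 2 the latter was 5.14. These comparisons share the old rTg4510 animals. The titles number the old animals in a lower and a higher range, and values were read within each after the data had been seen. Axl stood at 213 CPM in old rTg4510 (n = 2) against 4.45 in old WT (n = 3) in the lower range, and at 177 against 40.4 (n = 2 each) in the higher.

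The share of microglia with an Axl count was 25.0% in old rTg4510 (198 of 793 cells), with 25.6, 28.7, 30.6 and 13.4% in the 4 animals. It was 2.56% in old WT (8 of 312), with 1.34, 0, 0, 8.82 and 0% in the 5 animals. In P301L it was 0.633% and in rTta 1.03%. Thinned to 500 counts per cell, the shares were 7.80% in old rTg4510 and 0.977% in old WT, and median counts per cell were 1458 and 1032.5. In excitatory neurons, the lowest class for Axl, the shares were 1.10% and 1.91% at median counts of 2157.5 and 1816. Microglia fell into sub-clusters led by cytokine genes (Ccl4, Ccl3, Il1b) and by homeostatic genes (C1qa, P2ry12). Axl stood at 211 CPM in old rTg4510 against 37.5 in old WT cells of the first and at 184 against 0 in the second. Markers of mural cells, where Axl is highest, summed in these microglia to 118.5 CPM (0 to 260) in old WT and 96.5 (55.2 to 206) in old rTg4510 over 10 genes, with Myh11 at 0 in both. Markers of astrocytes summed to 3392 CPM (1350 to 5440) and 2465 (1927 to 3764) over 13 genes. The ranges overlapped for both lists, and their part in the Axl result was not tested.

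At the young age Axl was counted in microglia of rTg4510 alone. The rTg4510 animals with enough microglia had 48.7 and 105 CPM, from 8 and 5 counts, and the third had 5 microglia and was left out. All 4 young WT animals were at 0, which puts the difference at at least 7.28-fold, with the WT group set to 3 counts over the group. The exact 95% interval of the ratio starts at 5.12. The adjusted p was 0.039 (edgeR with Benjamini-Hochberg adjustment). This call was the only one of 29 tested, where 0.037% of all genes were called. The filter on low counts took all groups together, so Axl could enter this test through groups outside the comparison, such as old rTg4510. With only the groups compared, Axl was not called at the young age. The call was lost without any 1 young WT animal (adjusted p 0.062 to 0.16). It was lost with a minimum of 500 counts per cell (0.054) and without mixed cells (0.18). It was also lost without either rTg4510 animal (0.121 and 0.146), where the animal left is assumed to vary like the other groups. The difference between the ages in the genotype change was not called (adjusted p = 0.83), and with young WT at 0 its size and sign are not fixed.

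No other class had an Axl call. In astrocytes it stood at 91.3 ± 34.6 CPM in old WT and 99.3 ± 20.2 in old rTg4510, with a log2 change of 0.07 ± 0.29. P301L astrocytes had 158, 191 and 298 CPM, above all 5 old WT animals (54.2 to 137), but the change of 1.09 ± 0.32 was not called (adjusted p = 0.128). Mural cells had 179 ± 69.5 CPM in old WT and 232 ± 131 in old rTg4510 (n = 3 each), a log2 change of 0.38 ± 0.55. Young rTg4510 mural cells had 140 and 152 CPM, below all 4 young WT animals (245 to 512), with a change that was not called (-1.16, adjusted p = 0.537). Old WT mural cells (98.6 to 221) also lay below young WT and below P301L (225 to 610), again with no call.

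Mertk, the receptor most tied to clearance, was not called in any class or comparison. In microglia it stood at 46.7, 36.8, 172, 69.3 and 198 CPM in old WT and at 134, 81.6, 39.5 and 141 in old rTg4510. The groups overlapped, and the log2 change was 0.33 ± 0.40 (adjusted p = 0.76, edgeR with Benjamini-Hochberg adjustment). Young WT microglia had 124 ± 48.1 CPM (n = 4) and young rTg4510 110 ± 7.71 (n = 2). In astrocytes rTta animals stood at 96.3, 83.9 and 79.1 CPM, above the 5 old WT (25.6 to 49.9) and the 4 old rTg4510 animals (21.0 to 41.2). The changes were 1.33 ± 0.46 for rTta against WT (adjusted p = 0.31) and -1.35 for rTg4510 against rTta (adjusted p = 0.076), and neither was called. The latter passed with only the groups compared (adjusted p = 0.0308).

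Tyro3 did not pass either. In excitatory neurons, where mutant tau is expressed in the rTg4510 line, it stood at 46.0, 20.3, 62.4, 35.7 and 21.1 CPM in old WT and at 72.3, 82.2, 76.9 and 47.8 in old rTg4510. The groups overlapped, and the log2 change was 0.85 ± 0.27 (adjusted p = 0.29). The excitatory clusters differ in Tyro3 and are mixed differently by group. The dentate cluster made up 61.7% of old WT and 46.5% of old rTg4510 excitatory cells, and there Tyro3 stood at 1.85 ± 2.66 and 12.5 ± 3.33 CPM. In another cluster it stood at 105 ± 21.2 and 104 ± 32.7 CPM, and in a further one at 84.6 ± 48.6 and 135 ± 4.82, old WT first. These values were read after the mix had been seen. The rTta animals reached 43.9 to 89.9 CPM and the P301L animals 21.6 to 43.5. In oligodendrocytes, its highest class, Tyro3 stood at 176 ± 60.3 CPM in old WT and 179 ± 39.6 in old rTg4510, a log2 change of 0.04 ± 0.25. P301L oligodendrocytes had 286 to 308 CPM, above all 5 old WT animals (120 to 268), with a change of 0.72 (adjusted p = 0.178).

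The TAM ligands were not called in any class or comparison. Pros1 in microglia stood at 136 ± 58.1 CPM in old WT and 163 ± 13.2 in old rTg4510, a log2 change of 0.28 ± 0.32. In endothelial cells the Pros1 change was -0.01 ± 0.38. Gas6 in endothelial cells changed by 0.14 ± 0.27 and in astrocytes by 0.37 ± 0.26 (adjusted p = 0.74). Gas6 in microglia stood at 60.4 to 94.9 CPM in old rTg4510 and at 118 to 240 in rTta, which do not overlap. That change, -1.09 ± 0.34, had an adjusted p of 0.0587 and was called under 6 of the alternatives, such as without mixed cells (adjusted p = 0.0355). Against old WT microglia, which ran from 36.8 to 173 CPM, it was -0.60 ± 0.36 (adjusted p = 0.43). Over all kept cells Gas6 and choroid plexus cells were both high in some animals. Old rTg4510 replicate 3 held 544 such cells and 803 CPM of Gas6, while the other old rTg4510 animals had 99.5 to 112 CPM. In such sums the make-up of cells and the RNA per cell cannot be told apart.

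Mfge8 fell in astrocytes of old rTg4510. It stood at 1959, 1869, 2030, 1190 and 1789 CPM in old WT and at 849, 913, 483 and 947 in old rTg4510. Every old rTg4510 animal lay below every old WT animal. The means were 1767 ± 335 and 798 ± 214 CPM, and the log2 change was -1.09 ± 0.27 (adjusted p = 0.046, edgeR with Benjamini-Hochberg adjustment). In astrocytes 0.53% of 4527 genes were called. The call rested on the animals used: leaving out 1 gave changes from -1.20 to -0.91 and adjusted p from 0.037 to 0.19, past the threshold only without old WT replicate 4. It was also lost without mixed cells (adjusted p = 0.0504) and with finer clusters (-0.92, adjusted p = 0.28). The astrocyte class leaves out a cluster of 2945 cells, at a median of 487 counts, with 10 of 13 astrocyte markers. That cluster was left unnamed because it also held 3 markers of excitatory neurons. Summed over all animals, its Mfge8 stood at 323 CPM, against 1516 in the astrocyte class.

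**Figure D3:**
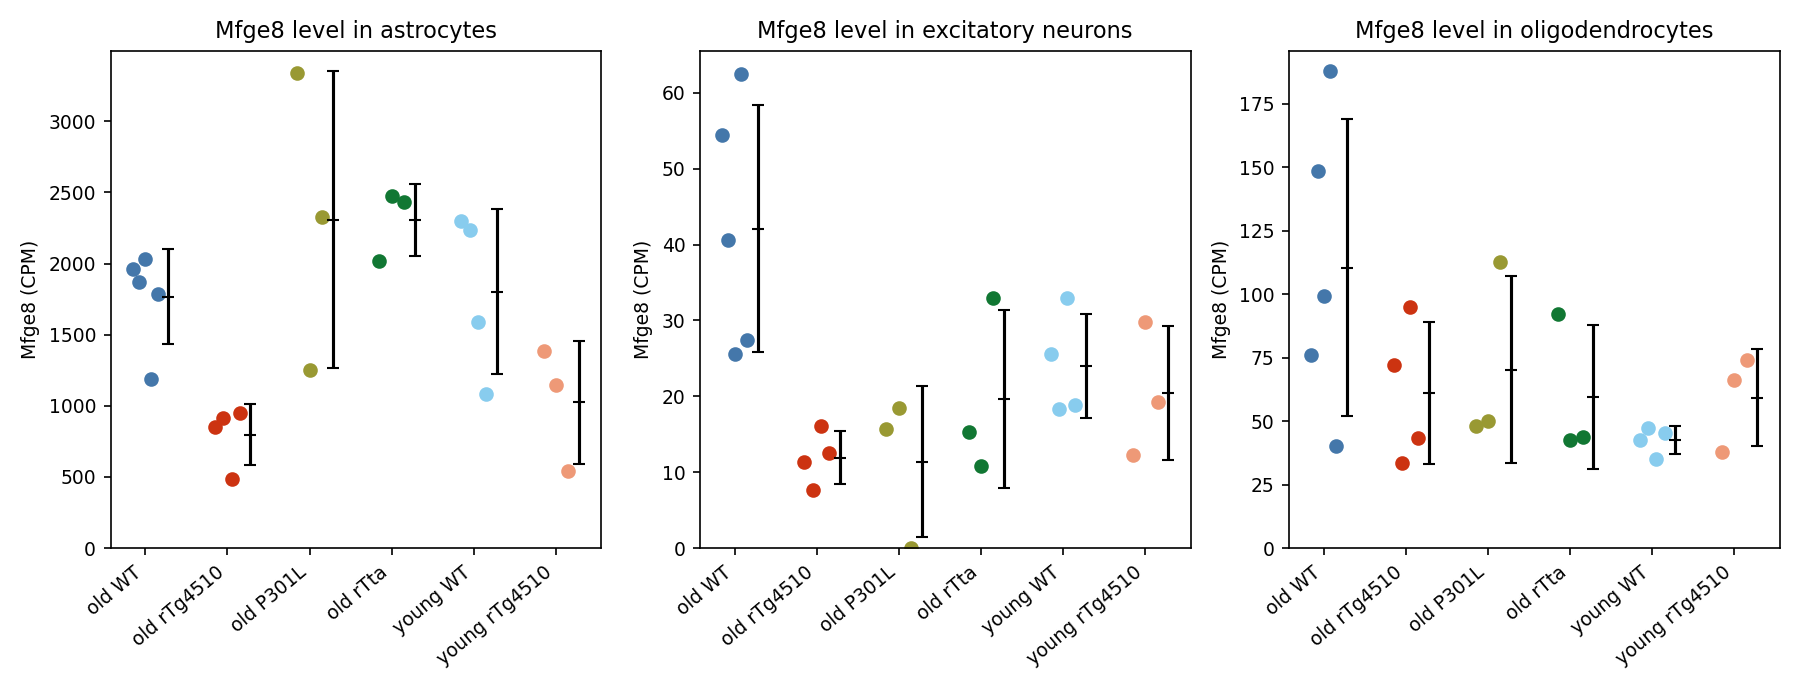
Mfge8 in CPM per animal (points) in astrocytes, excitatory neurons and oligodendrocytes, with the mean and SD of each group. In astrocytes the 4 old rTg4510 animals sit at 483 to 947 CPM and the 5 old WT animals at 1190 to 2030.

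Old rTg4510 astrocytes also lay below those of rTta, at 2017, 2476 and 2432 CPM, and P301L, at 3342, 1255 and 2331 CPM. The changes were -1.49 ± 0.30 against rTta (adjusted p = 0.0027) and -1.49 ± 0.30 against P301L (adjusted p = 0.027), again with the rTg4510 animals shared. With finer clusters neither was called (adjusted p = 0.057 and 0.15). The P301L call was also lost without old rTg4510 replicate 3 (adjusted p = 0.093) and without P301L replicate 1 (-1.10, adjusted p = 0.26). Young WT astrocytes had 2302, 2237, 1590 and 1083 CPM and young rTg4510 1383, 1149 and 544, which overlap, and the change of -0.77 ± 0.31 was not called (adjusted p = 0.91). By title range, old rTg4510 against old WT astrocytes stood at 881 against 1953 CPM and at 715 against 1490. The astrocyte markers themselves summed to 41300 CPM (37130 to 44820) in old WT and 44460 (34190 to 49350) in old rTg4510. Those ranges overlapped, and no test was made on them. The share of astrocytes with an Mfge8 count was 85.1% in old WT and 67.0% in old rTg4510, and 59.5% and 34.5% after thinning.

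In excitatory neurons Mfge8 was low and fell as well. It stood at 54.5, 40.6, 25.5, 62.4 and 27.5 CPM in old WT, from 96 counts, and at 11.3, 7.71, 16.1 and 12.5 in old rTg4510, from 38 counts. The groups did not overlap, and the change was -1.85 ± 0.37 (adjusted p = 0.014). The ratio of summed counts, scaled to the class totals, was 0.263 with an exact 95% interval of 0.176 to 0.386. P301L neurons had 15.6, 18.5 and 0 CPM and rTta neurons 15.2, 10.8 and 32.9, and old rTg4510 did not pass against either (-0.31 ± 0.56 and -0.62 ± 0.46). The old WT call was lost without WT replicate 1 (-1.69, adjusted p = 0.10) or old rTg4510 replicate 2 (-1.64, adjusted p = 0.13). Within the dentate cluster Mfge8 stood at 46.8 ± 29.0 CPM (n = 5) in old WT and 7.83 ± 5.53 (n = 4) in old rTg4510. In another excitatory cluster it stood at 39.9 ± 23.0 CPM (n = 3) and 9.42 ± 7.28 (n = 4). In a further one the groups overlapped, with 33.1 to 51.5 CPM (n = 4) and 4.75 to 43.0 (n = 3). Astrocyte markers in these neurons summed to 1816 CPM (1117 to 2403) in old WT and 1602 (1303 to 2159) in old rTg4510. Oligodendrocyte markers summed to 2357 CPM (1069 to 3864) and 989 (553.5 to 2036). Their part in the result was not tested.

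In oligodendrocytes Mfge8 stood higher in old WT than in young WT. Their title ranges do not overlap, so age and title range cannot be told apart. A title range term in the fit adjusts only within an age. Old WT had 75.9, 149, 99.5, 188 and 40.2 CPM and young WT 42.6, 47.4, 35.0 and 45.4. Old WT replicate 5 lay within the young range. The change was 1.37 ± 0.34 (adjusted p = 0.013), and it was not called without old WT replicate 4 (1.09, adjusted p = 0.10), without young WT replicate 3 (1.22, adjusted p = 0.095) or with the title range in the fit (adjusted p = 0.088). Astrocyte markers in these cells summed to 2741 CPM (1467 to 4056) in old WT and 1305 (947 to 1848) in young WT, and their part in the result was not tested. In old rTg4510 against old WT the change was -0.95 ± 0.34 and not called (adjusted p = 0.44). Microglia showed Mfge8 at 98.5 ± 34.5 CPM in old WT and 34.2 ± 6.49 in old rTg4510, without overlap (-1.26 ± 0.42, adjusted p = 0.078).

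Over all classes, 3 of 31 pairs of a gene and class were called in old rTg4510 against old WT, against 0.547% of all tests, and 11 had an unadjusted p under 0.05, as did 7.92% of all tests. Against rTta 2 of 31 were called (0.916% of all tests) and against P301L 2 of 28 (1.5% of all tests). Old against young WT had 1 of 29 called (0.448%). Old against young rTg4510 had 0 of 29 called (0.321%) with 4 under an unadjusted 0.05, where 6.29% of all tests were. P301L against WT had 0 of 28 called (0.427%) with 7 under an unadjusted 0.05 (12.1% of all tests). rTta against WT had 0 of 31 (0.433%) with 10 (9.01%), and P301L against rTta 0 of 28 (0.293%) with 8 (8.98%). The difference of the genotype change between the ages had 0 of 29 called (0.00195%) with 4 (4.46%). DESeq2 gave the same counts in each of these comparisons. The pairs are those that passed the filter on low counts, from 6 of the genes in all cells and 5 in microglia to 1 in oligodendrocyte precursors. The filter took all groups together, so a gene high in a single group could enter through that group, as Axl could in microglia. The shares called are thus not independent of the levels compared. Pairs in all cells sum over the classes and are not separate from them.

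**Figure D4:**
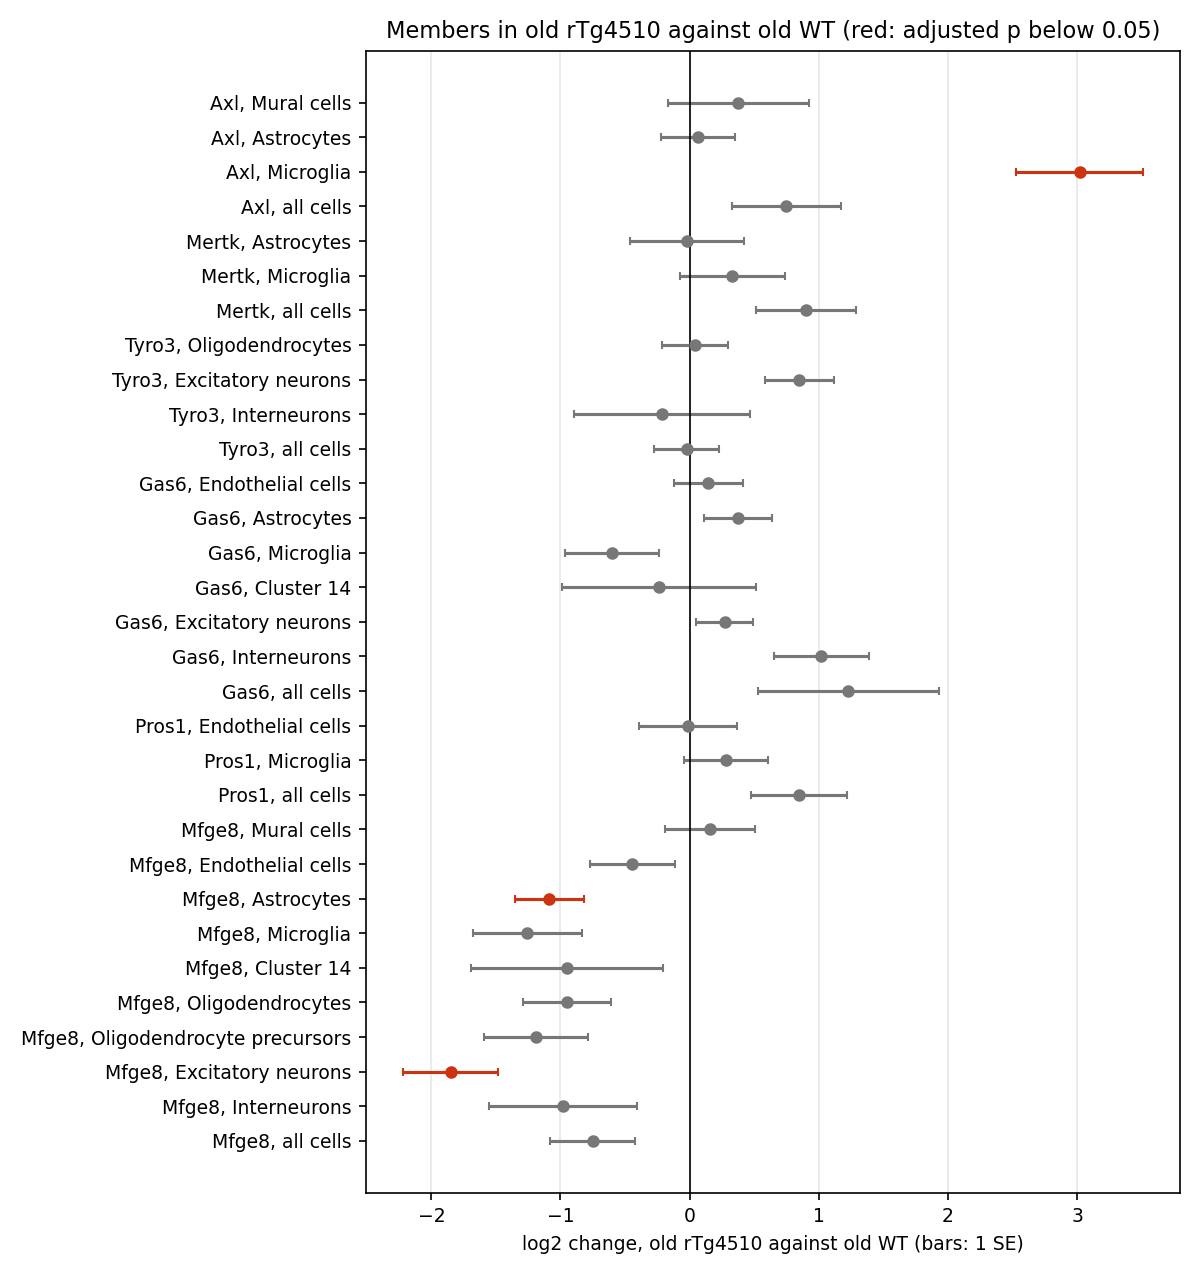
Log2 change of the genes in old rTg4510 against old WT in each class that passed the filter, with bars of 1 SE and red where the adjusted p was below 0.05. Axl in microglia (3.02 against old WT) and Mfge8 in astrocytes (-1.09) and excitatory neurons (-1.85) are the 3 in red.

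The other genes of this clearance pathway were read from 8 lists with 53 genes. The lists were chosen with earlier results of these data known, so the shares called below are no test of the pathway. In microglia of old rTg4510 against old WT, 6 of 28 tested genes rose and 1 fell, against 4.63% of all genes called. The filter on low counts took all groups together, so a gene not counted in old WT, such as Lgals3, could enter through rTg4510 animals. Anxa5, which encodes a protein that binds phosphatidylserine, rose from 37.2 to 198 CPM (2.47 ± 0.44, adjusted p = 0.00011), and by 3.43 without WT replicate 4. Lgals3, a galectin that binds Mertk, stood at 84.2, 103, 166 and 64.8 CPM in old rTg4510 with 129 counts and at 0 in old WT, at least 11.3-fold higher against 3 counts over the group, with an exact 95% interval that starts at 9.07. Trem2, a lipid receptor of microglia, rose from 1306 to 2266 CPM (0.97 ± 0.23, adjusted p = 0.0058). Ifnar2, a type I interferon receptor subunit, rose by 1.10 (adjusted p = 0.016) and Abca1, a lipid exporter, by 1.16 (adjusted p = 0.044). P2ry12, a receptor of resting microglia for nucleotides, fell by 1.04 (adjusted p = 0.0078). P2ry12 and Trem2 are also among the 13 markers that named microglia. The Abca1 call was lost in several alternatives (with DESeq2, adjusted p = 0.085), and the P2ry12 call was lost with no filter on low counts (-0.80, adjusted p = 0.11).

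Against rTta microglia, 2 of 28 rose and 3 fell, where 3.89% of all genes tested there were called. Against P301L 3 rose and 3 fell, where 7.26% were called. Anxa5 rose by 2.73 and 2.55, and Lgals3 was at 0 in the rTta animals, where old rTg4510 was at least 13.3-fold higher on the same terms, with an interval that starts at 10.7. In P301L microglia Lgals3 had 1 count, a ratio of 35.4 with an exact 95% interval of 6.25 to 1411 for counting error. Elmo1, which helps the engulfment machinery activate Rac, changed by -1.16 and -1.52, P2ry12 by -1.52 and -1.39 and the scavenger receptor Stab1 by -2.44 and -1.58, in that order. Stab1 is also a border macrophage marker and was among the leading genes of Cluster 14. There it changed by -4.38 and -3.78, with 4 counts in old rTg4510, and both calls were lost with only the groups compared. The Stab1 call against P301L was lost under 8 alternatives, with DESeq2 (adjusted p = 0.053) and without any 1 P301L animal (0.0772 to 0.146) among them. The Elmo1 call against rTta was lost with no filter on low counts (0.0546) and without rTta replicate 1 (0.0555) or 2 (0.137). Cd47, a signal that prevents uptake, rose by 1.35 against P301L, a call lost without P301L replicate 1 (1.06, adjusted p = 0.187) or 2 (0.103). Against rTta the Cd47 change was -0.01 and not called. Trem2, Ifnar2 and Abca1, called against old WT, were called against neither of these groups. Against rTta and P301L in that order, Trem2 changed by 0.40 and 0.18, Ifnar2 by 0.37 and 0.70 and Abca1 by 0.61 and 0.63. Medians in microglia against old WT were 0.11 for the engulfment list, 0.38 for other phosphatidylserine receptors, 0.76 for feedback and interferon genes and -0.10 for signals that invite or prevent uptake, against -0.03 for all genes tested. Over all classes 7 rose and 2 fell of 214 tests in old rTg4510 against old WT, where 0.547% of all tests were called. At the young age 0 of 28 were called in rTg4510 microglia and 0 of 202 over all classes. Only 0.037% of all tests over all classes were called there, so a count of 0 says little about these lists. In oligodendrocytes of old against young WT, Itgb5, the integrin beta-5 subunit of an Mfge8 receptor, was higher by 3.01 ± 0.52 (adjusted p = 0.00015) and Anxa5 by 1.86 ± 0.37 (adjusted p = 0.0016).

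**Figure D5:**
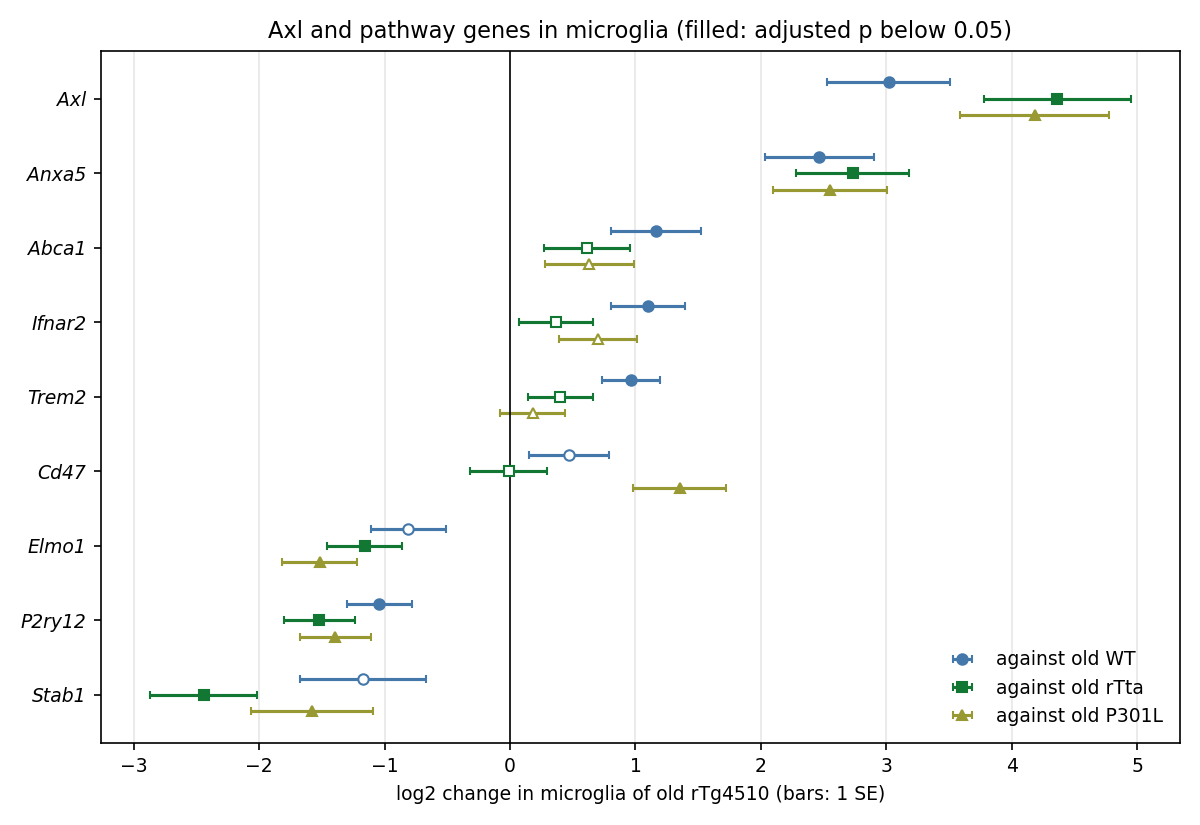
Log2 change of Axl and pathway genes in microglia of old rTg4510 against old WT, rTta and P301L, with bars of 1 SE and filled symbols where the adjusted p was below 0.05. Axl and Anxa5 lie right of 0 in each comparison, and P2ry12 and Elmo1 left of 0.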

How the data were processed

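The authors deposited 1 table of whole-number counts per gene and cell barcode from Drop-seq of 22 mice. Per the submitters' processing notes, bcl2fastq 2.18.0.12 and STAR 2.2 were used with the build mm10; the counting tool, annotation and strand are not given in the sources used here, and whether counts are of distinct molecular identifiers was not checked. Members and lists were chosen with earlier results of these data known. Barcodes with at least 300 counts were clustered without the 6 genes (scanpy 1.11.5, 2000 variable genes, 40 components, 15 neighbours, Leiden resolution 1). Clusters were named where at least 3 markers of a class stood 2-fold above the others with 20 CPM added, a rule set after the clusters had been seen. Doublets were not called. Counts were summed per animal and class (at least 20 cells) over the 12614 genes counted in all animals, since the table was merged from 2 parts, and tested with edgeR 4.0.16 (R 4.3.3, TMM, filterByExpr, robust quasi-likelihood F test), with 1 fit per class over all 6 groups, Benjamini-Hochberg adjustment within a class and a threshold of 0.05. Replicates are animals. Values at 0 were set to 3 counts for bounds. Intervals and bounds cover counting error only. Named genes were the 6 members, called list members (at most 4 per list, class and comparison), and the 3 genes most alike in level; a few that met this rule are not reported here. The alternatives were DESeq2 1.42.0, other filters, at least 500 counts or 50 cells, resolution 2, without mixed cells, only the groups compared, a title range term and leaving out each animal.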

Additional observations from a re-analysis of the deposited data

Results flagged for a closer look

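Single animals far from the others of their group were looked for in 81 groups of 4 to 10 animals, and 8 held one, where chance gives about 1 in 20. Mfge8 in astrocytes stood at 1190 CPM in old WT replicate 4, against 1789 to 2030 in the other old WT animals. Axl in microglia stood at 80.8 CPM in the same animal, from 7 counts, against 0 to 13.3. Gas6 over all cells stood at 305 CPM there, against 76.9 to 111.5. Gas6 over all cells also stood at 803 CPM in old rTg4510 replicate 3, against 99.5 to 111.5, and at 527 CPM in young WT replicate 3, against 93.9 to 117. These animals held 60, 544 and 182 choroid plexus cells. Gas6 in endothelial cells stood at 242 CPM in young WT replicate 1, against 349 to 364. Mfge8 in endothelial cells stood at 512 CPM in old WT replicate 2, from 19 counts in 29 cells, against 205 to 246. Mfge8 over all cells stood at 186 CPM in old rTg4510 replicate 1, against 154.5 to 157.9.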

How the results depend on the processing

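Of 1544 alternative values for 102 pairs of a gene and class, 1430 kept their direction and side of the threshold, 106 no longer passed it, 8 newly passed and 0 changed direction. Calls among the 6 genes in old rTg4510 against old WT ran from 1 to 3 when 1 animal was left out. At the young age 0 were called with at least 500 counts, without mixed cells or with only the groups compared, and 0 to 1 when 1 animal was left out. Old against young WT gave 0 with the title range in the fit and 0 to 1 when 1 animal was left out. P301L against WT gave 1 with no filter on low counts. Old rTg4510 against rTta gave 4 with only the groups compared and 2 to 3 without 1 animal. Old rTg4510 against P301L gave 1 at the finer clustering and 1 to 2 without 1 animal. P301L against rTta gave 1 with only the groups compared. Neighbouring classes differed in 7 of 44 pairs with at least 50 cells, against 11 of 60. Over all genes, DESeq2 called 398 against 197 genes in P301L against WT, 209 against 135 in P301L against rTta, 315 against 165 in old against young rTg4510 41 against 19 in young rTg4510 against WT and 6 against 1 for the genotype change between ages, which ran from 0 to 12 over all alternatives. With only the groups compared, P301L against rTta gave 908, P301L against WT 486 and old rTg4510 against rTta 755 against 482. No filter on low counts gave 349, 207 and 49 for P301L against WT, P301L against rTta and the young comparison, and the title range gave 86 for old against young rTg4510 and 37 for the young comparison. The causes were not tested. No paired analysis was possible because the replicate numbers follow the order of the samples and pair no animals. Low counts limit Axl in microglia outside old rTg4510 and Mfge8 in neurons.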
